A study of Mus musculus with 6 samples.

Results

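The islet's minor hormone cells were followed through 7 genes, the rows Sst, Hhex, Ghsr, Rbp4, Ppy, Pyy and Ghrl of the deposited count table, chosen by name as markers of delta, PP and epsilon cells. All 7 were found among the 53670 genes of the table, and all 7 passed the filter on low counts among 15915 tested genes. RNA came from islets isolated with collagenase from 6-week-old mice, 3 libraries of genotype Paupar +/+ (WT) and 3 of Paupar -/- (KO), where Paupar is a long noncoding RNA gene beside Pax6. The labels name no strain, no other allele, no treatment and no Cre, and do not say whether a library came from 1 mouse or several, and a p-value here therefore reflects variation among these libraries, part of which could be technical. Values by library are given in the order of replicates 1, 2 and 3. The comparison asks how the transcripts of these cells differ in islets without Paupar.

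Delta cells release somatostatin, which acts on neighbouring beta and alpha cells through Gi-coupled receptors and restrains insulin and glucagon secretion. PP cells, also called gamma cells, release pancreatic polypeptide and are most frequent in the part of the pancreas that arises from the ventral bud. Epsilon cells release ghrelin and become rare in the islet after birth. In mouse islets the ghrelin receptor is found mainly on delta cells, so that ghrelin raises somatostatin release, and peptide YY is made by several islet cell types and not by PP cells alone.

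Ppy and Pyy are paralogs that lie side by side on the minus strand of chromosome 11 (101961244 to 101962633 and 101967990 to 101969146 in mm9), 5357 bp apart with 0 annotated genes between them. Hhex (37507377 to 37515218, plus strand) and Rbp4 (38191110 to 38199811, minus strand) share chromosome 19, 675.9 kb apart with 9 genes between them. Sst lies on chromosome 16 (23889667 to 23890930), Ghrl on chromosome 6 (113666113 to 113669874) and Ghsr on chromosome 3 (27270273 to 27276932). All 7 are annotated as protein-coding in GENCODE vM1, and 0 other genes of that annotation overlap them or lie within 2000 bp. The 150 bases before the transcription start are shown for 5 of them, from RefSeq on GRCm38.p6 and read 5' to 3' on the gene's strand. Sst is shown for its cAMP response element, Ppy and Pyy because they are neighbours, and Hhex and Ghrl because they were lower in every KO library. Capitals mark the cAMP response element TGACGTCA, which is its own reverse complement, and the TATA box TATAAA on either strand.
Sst (chr16:23890845-23890994, - strand): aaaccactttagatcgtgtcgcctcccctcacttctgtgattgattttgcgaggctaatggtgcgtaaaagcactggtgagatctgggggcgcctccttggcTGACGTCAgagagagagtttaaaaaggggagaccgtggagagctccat
Ppy (chr11:102101320-102101469, - strand): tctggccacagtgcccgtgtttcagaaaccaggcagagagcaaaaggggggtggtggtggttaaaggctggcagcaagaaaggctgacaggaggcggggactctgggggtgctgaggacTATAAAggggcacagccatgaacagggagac
Pyy (chr11:102107833-102107982, - strand): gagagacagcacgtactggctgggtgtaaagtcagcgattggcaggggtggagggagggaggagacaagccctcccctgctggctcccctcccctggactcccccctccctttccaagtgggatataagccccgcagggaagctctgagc
Hhex (chr19:37434691-37434840, + strand): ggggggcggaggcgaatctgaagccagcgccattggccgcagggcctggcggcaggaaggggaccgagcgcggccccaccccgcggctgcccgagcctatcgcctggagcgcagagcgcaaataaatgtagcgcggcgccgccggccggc
Ghrl (chr6:113719912-113720061, - strand): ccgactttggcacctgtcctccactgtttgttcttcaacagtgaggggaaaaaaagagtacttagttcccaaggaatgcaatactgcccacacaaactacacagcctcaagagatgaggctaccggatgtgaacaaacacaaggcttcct
The element TGACGTCA stood 40 bases before the start of Sst and was present in 1.42% of 27025 promoters of the same length. The TATA box TATAAA stood 25 bases before the start of Ppy and was present in 8.08% of them. Neither string was found in the windows of Pyy, Hhex and Ghrl. The tetramer TAAT, the core letters of many homeodomain sites, occurred on either strand in the windows of Sst and Ghsr and in 37.9% of all windows, and no match of one motif overlapped a match of another. The window of Hhex was 74.7% G and C, against a median of 54% over all promoters.

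The libraries held 25733194 to 27285009 gene counts. Paupar had 177, 252 and 111 counts across WT libraries against 4, 0 and 4 in the KO libraries. The libraries had islet RNA by its defining genes: 12 of 12 beta cell genes and 12 of 12 alpha cell genes were detected, and the beta cell list took 21.6 to 24.7% of counts in WT and 27.6 to 27.9% in KO. A pair of libraries stood apart. WT replicate 1 held some stomach transcripts that the others lacked. Gkn1, Gkn2, Pgc, Muc5ac, Atp4b and Tff1, genes of gastric pit, chief and parietal cells, had 60 to 1107 counts each there. They had at most 1 in any other library, and summed to 2825 counts or 0.0105% of WT replicate 1. Other stomach genes were present in all libraries. Atp4a, also of parietal cells, had 507 counts there, 282 and 123 in the other WT libraries and 99, 198 and 135 in KO. Gast had 13 there, 10 and 7 in the other WT libraries and 3, 11 and 6 in KO. Of the 17 stomach and gut genes listed, Gip, Cdx1 and Cdx2 were at 0 in all libraries, and the summed level was 121.5 to 213.7 CPM in WT and 123.4 to 133.2 in KO, the highest being WT replicate 1. KO replicate 1 was the only KO library that matched the WT libraries in sex-linked transcripts, with 0 counts of Xist and 1693 of the Y-linked Ddx3y, while KO replicates 2 and 3 had 1120 and 862 of Xist and 2 and 0 of Ddx3y. Results are therefore also given without WT replicate 1, without KO replicate 1, and with KO replicate 1 as the only KO library. That last comparison was chosen after seeing the data, and its SE rests on the spread of the WT libraries, which the lone KO library is assumed to share. Without KO replicate 1 every KO library differed from every WT library in Xist and Ddx3y, so genotype and sex cannot be told apart there. With all 6 libraries genotype and sex were partly confounded.

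None of the 7 genes passed the test between KO and WT at an adjusted p below 0.05 in edgeR (quasi-likelihood test over all genes, Benjamini-Hochberg adjustment), where 0.170% of tested genes were called, all of them lower in KO. At an unadjusted p below 0.05 it was 2 of 7, Hhex and Ghrl, both lower in KO, against 16.4% of tested genes (9.38% lower and 6.99% higher). The same 2 genes had all 3 KO libraries below all 3 WT libraries, and groups did not overlap for 23.4% of tested genes (lower in KO for 12.1%, higher for 11.3%). The median log2 fold change of the 7 was -0.33, beside 0.0023 over all tested genes, and 6 of 7 were negative, against 49.7% of tested genes. DESeq2 also called none of the 7, where it called 4.38% of the genes it gave an adjusted p (3.14% lower in KO). With limma-voom 0 of all tested genes were called lower and 0 higher, so it could call none of the 7. In bulk samples, fewer cells of a type and less RNA per cell cannot be told apart.

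**Figure D1:**
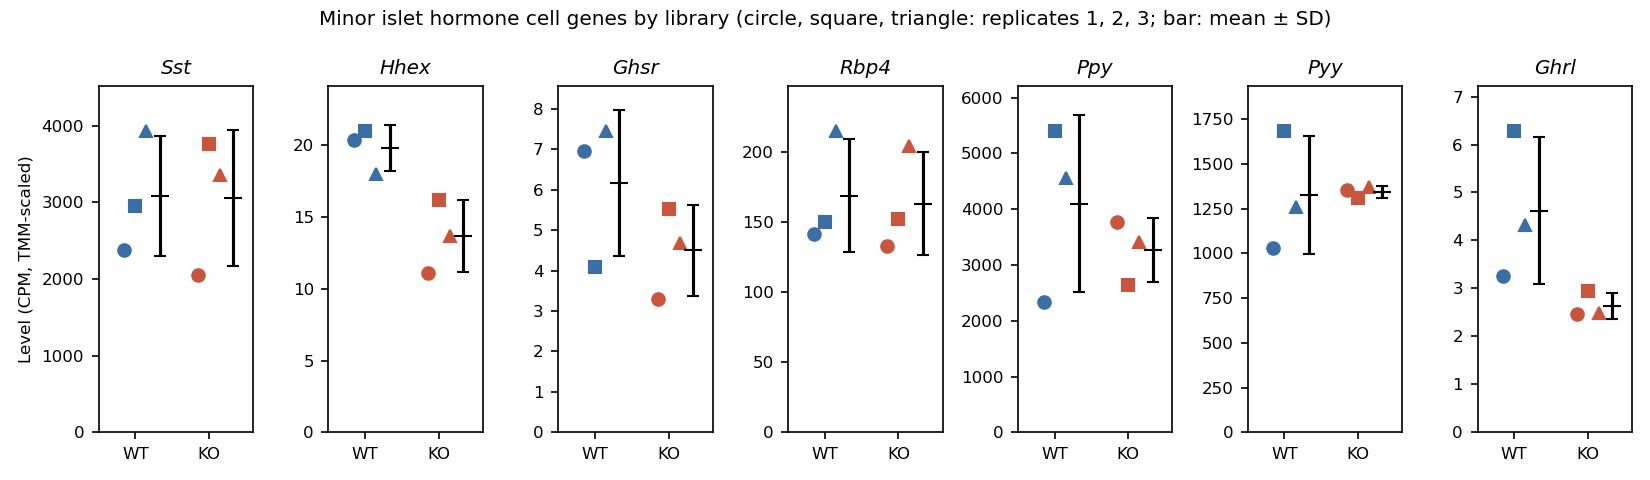
Level of each gene in CPM (counts per 1000000, TMM-scaled, linear axes from 0) by library, with WT in blue and KO in red, a symbol for each replicate number and a bar for the mean ± SD of 3 libraries. Hhex and Ghrl were lower in the 3 KO libraries than in the 3 WT libraries, while the groups overlapped for the other 5 genes.

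Per kilobase of exon, Ppy and Sst had the highest levels and Ghsr the lowest. In WT the levels were 8198 ± 3159 CPM per kb for Ppy, 5157 ± 1306 for Sst, 2305 ± 574 for Pyy and 130.2 ± 30.9 for Rbp4 (SD, n = 3). They were 8.77 ± 2.91 CPM per kb for Ghrl, 5.15 ± 0.413 for Hhex and 1.39 ± 0.409 for Ghsr. The order of the means was the same in KO, where Ppy stood at 6539 ± 1150 and Ghsr at 1.02 ± 0.253. Ppy and Sst could not be put in order beyond their spread, since their libraries overlapped in both genotypes (4681 to 10794 against 3975 to 6559 in WT). Every other pair of neighbours in the order was apart, the narrowest being Ghrl and Hhex in KO, at 4.69 to 5.58 and 2.89 to 4.21. The hormone genes Sst, Ppy, Pyy and Ghrl together took 0.571, 1.04 and 1.02% of counts across WT libraries against 0.691, 0.750 and 0.801% in the KO libraries, so that the KO libraries lay inside the WT range.

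Levels below are in TMM-scaled CPM. Sst encodes somatostatin, the hormone of delta cells. It stood at 2381, 2957 and 3929 CPM in the WT libraries and at 2055, 3756 and 3358 CPM in the KO libraries. The groups overlapped, and the lowest library was KO replicate 1. The means were 3089 ± 782 and 3056 ± 889 CPM, a log2 fold change of -0.02 with a 95% interval of -0.66 to 0.63 (SE 0.27, adjusted p = 0.987). That interval still holds a change of more than 0.6 in either direction on the log2 scale. The value was -0.17 (SE 0.29) without WT replicate 1 and 0.20 (SE 0.23) without KO replicate 1. With KO replicate 1 as the only KO library it was -0.59 (SE 0.33).

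Rbp4 encodes the plasma carrier of retinol, which in mouse islets is made mainly by delta cells. Its libraries were ranked much like those of Sst, with 141, 150.3 and 215 CPM in WT and 133, 152 and 204 CPM in KO. WT replicate 3 and KO replicate 3 were the highest of their groups. The log2 fold change was -0.05 (95% interval -0.55 to 0.45, SE 0.21, adjusted p = 0.933). It was -0.16 (SE 0.23) without WT replicate 1, 0.08 (SE 0.22) without KO replicate 1, and -0.35 (SE 0.27) with KO replicate 1 as the only KO library.

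Hhex encodes a homeodomain transcription factor that delta cells need for their identity in mice. It had 545, 564 and 485 counts across WT libraries against 292, 423 and 363 in the KO libraries, or 20.4, 21.0 and 17.96 against 11.1, 16.1 and 13.7 CPM. Every KO library was below every WT library. The mean was 19.8 ± 1.59 CPM in WT and 13.6 ± 2.52 in KO, a log2 fold change of -0.53 with a 95% interval of -0.89 to -0.18 (SE 0.15, adjusted p = 0.184 in edgeR), so it did not pass. The value was -0.51 (SE 0.18) without WT replicate 1 and -0.41 (SE 0.13) without KO replicate 1. With KO replicate 1 as the only KO library it was -0.83 (SE 0.16). The adjusted p was between 0.0597, in DESeq2, and 0.623 over the alternatives run.

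Ghsr encodes the ghrelin receptor, a Gq-coupled receptor. It had 186, 110 and 201 counts across WT libraries against 87, 145 and 124 in the KO libraries, or 6.95, 4.09 and 7.44 against 3.31, 5.53 and 4.67 CPM. The groups overlapped because WT replicate 2 was below KO replicates 2 and 3. The log2 fold change was -0.45 (95% interval -1.13 to 0.23, SE 0.29, adjusted p = 0.488). It was -0.68 (SE 0.24) without WT replicate 2, -0.28 (SE 0.31) without WT replicate 3, -0.35 (SE 0.34) without WT replicate 1 and -0.27 (SE 0.29) without KO replicate 1. With KO replicate 1 as the only KO library it was -0.90 (SE 0.43).

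KO replicate 1 was the lowest of the 6 libraries for 5 of the 7 genes, the delta cell genes Sst, Rbp4, Hhex and Ghsr and also Ghrl, and WT replicate 1 was the lowest for the other 2, Ppy and Pyy. Acinar transcripts took more of these libraries than of others of their genotype. The 25 acinar genes found, all tested with a median log2 fold change of -0.52, all negative and 0 called, summed (unscaled CPM, as for all list sums) to 94366, 53485 and 31735 CPM in the WT libraries and to 56662, 40317 and 21908 in the KO libraries. Within each genotype Rbp4 was higher where that sum was lower, and Sst was so in WT, while in KO the highest Sst was in KO replicate 2. Hhex and Ghsr did not follow the sum in either genotype. In WT, Hhex stood at 20.4, 21.0 and 17.96 CPM and Ghsr at 6.95, 4.09 and 7.44. The part of acinar RNA in these values was not tested. With library sizes taken without acinar genes the log2 fold changes were -0.01 for Sst, -0.04 for Rbp4, -0.53 for Hhex and -0.44 for Ghsr.

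**Figure D2:**
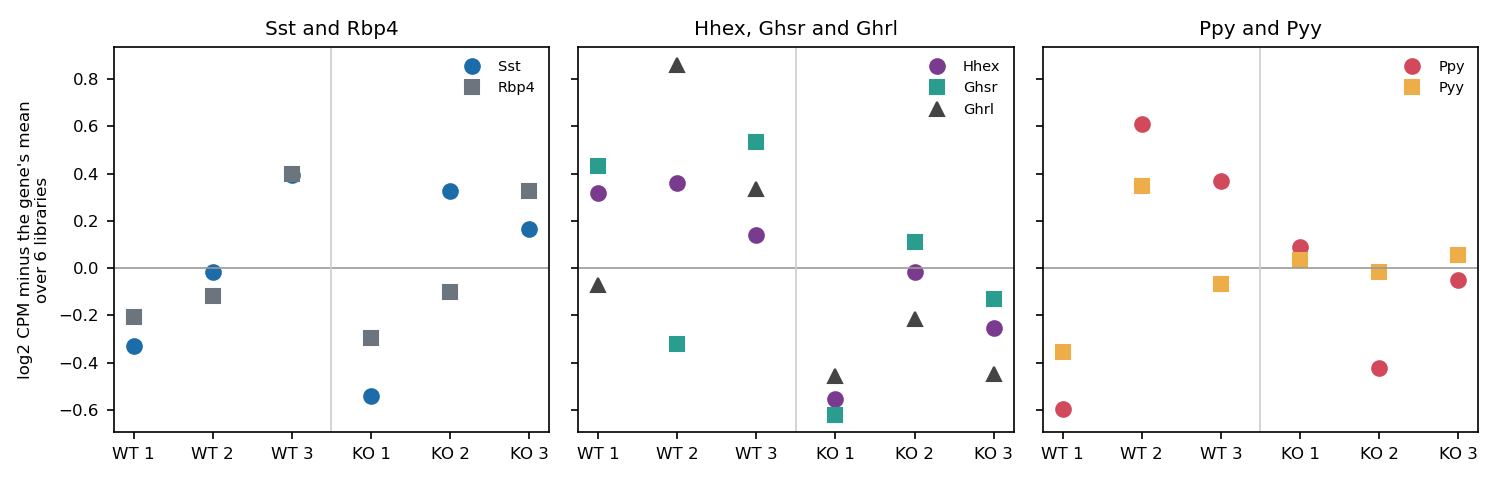
Level of each gene in a library as log2 CPM minus the gene's mean over the 6 libraries, with WT left and KO right of the line and points not joined because replicates have no order. KO replicate 1 was the lowest library for Sst, Rbp4, Hhex, Ghsr and Ghrl, and WT replicate 1 was the lowest for Ppy and Pyy.

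Counts of delta cell genes were also set against Sst counts of the same library, a ratio that no scaling can change. Hhex had 8.56, 7.08 and 4.57 counts per 1000 Sst counts across WT libraries against 5.40, 4.30 and 4.07 in the KO libraries. The groups overlapped, since WT replicate 3 lay below KO replicate 1. On the log2 scale the KO mean was lower by 0.52 (KO minus WT -0.52), with a two-sided exact permutation p of 0.2, where 3 against 3 libraries cannot give less than 0.1 (0.533 adjusted over 4 ratios). Leaving out single libraries moved it from -0.77, without WT replicate 3, to -0.32, without WT replicate 1. Ghsr had 2.92, 1.38 and 1.90 counts per 1000 Sst counts in WT and 1.61, 1.47 and 1.39 in KO, a log2 difference of -0.40 (exact permutation p = 0.4, adjusted 0.533) that was -0.12 without WT replicate 1 and -0.66 without WT replicate 2. Rbp4 had 5.94, 5.08 and 5.47 counts per 100 Sst counts in WT and 6.46, 4.05 and 6.08 in KO, a log2 difference of -0.02 (exact permutation p = 1).

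**Figure D3:**
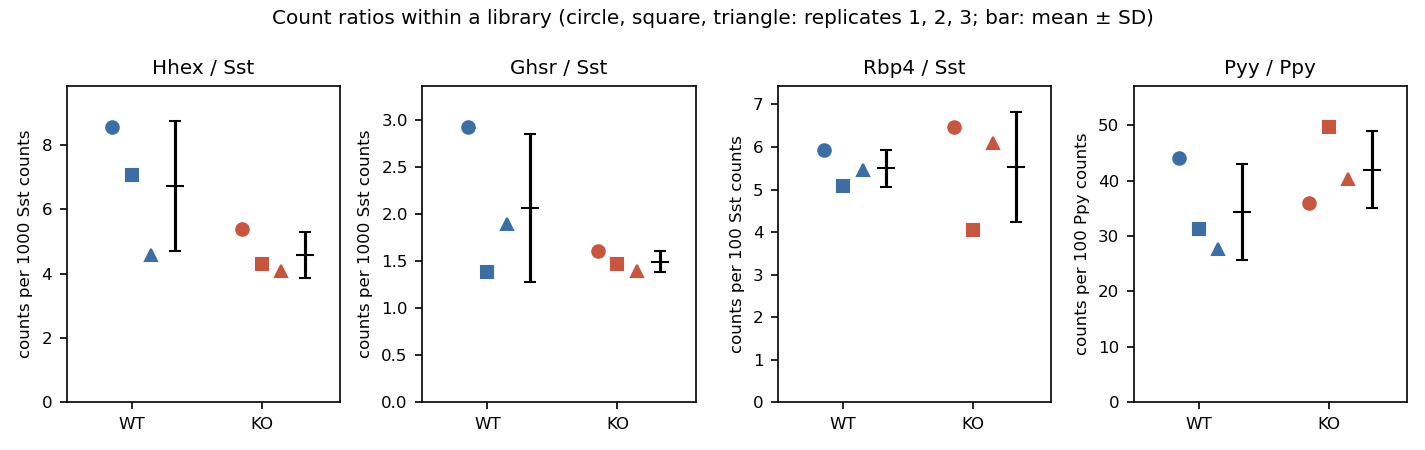
Count ratios within each library on linear axes from 0, with a symbol for each replicate number and a bar for the mean ± SD of 3 libraries. The groups overlapped in all 4 ratios, and Hhex per 1000 Sst counts ran from 4.57 to 8.56 in WT and from 4.07 to 5.40 in KO.

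Of the PP cell hormones, Ppy encodes pancreatic polypeptide, which lowers food intake and pancreatic secretion. It was the most variable hormone gene of the WT libraries, at 2340, 5397 and 4560 CPM in the WT libraries and at 3762, 2637 and 3409 CPM in the KO libraries. All KO libraries lay inside the WT range, and WT replicate 1 was the lowest of all. The means were 4099 ± 1579 and 3269 ± 575 CPM, a log2 fold change of -0.33 (95% interval -1.06 to 0.41, SE 0.31, adjusted p = 0.646). Single libraries moved it from -0.60 (SE 0.20, adjusted p = 0.400, without WT replicate 1) to -0.08 (SE 0.32, without WT replicate 2), and it was -0.44 (SE 0.36) without KO replicate 1 and -0.12 (SE 0.50) with that library as the only KO library.

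Pyy encodes peptide YY, which signals through receptors of the neuropeptide Y family. It stood at 1032, 1683 and 1261 CPM in WT and at 1353, 1308 and 1373 CPM in KO. WT replicate 1 was the lowest and WT replicate 2 the highest library, as for Ppy. The KO libraries were close together, with an SD of 2.48% of their mean against 24.9% in WT. The log2 fold change was 0.02 (95% interval -0.40 to 0.44, SE 0.18, adjusted p = 0.969), and -0.12 (SE 0.15) without WT replicate 1, 0.02 (SE 0.21) without KO replicate 1 and 0.03 (SE 0.30) with KO replicate 1 as the only KO library. Pyy counts per 100 Ppy counts were 44.1, 31.2 and 27.6 across WT against 36.0, 49.6 and 40.3 in KO, a log2 difference of 0.31 (exact permutation p = 0.3, adjusted 0.533) that ran from 0.16, without WT replicate 3, to 0.50, without WT replicate 1.

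Ghrl encodes ghrelin, the hormone of epsilon cells, which in the body comes mostly from the stomach. It had the largest fold change of the 7 genes and the fewest counts, with 87, 169 and 117 counts across WT libraries against 65, 77 and 66 in the KO libraries, or 3.25, 6.28 and 4.33 against 2.47, 2.94 and 2.49 CPM. Every KO library was below every WT library, but the counting intervals (exact Poisson, 95%, covering counting error only) of the nearest libraries overlapped, at 69.7 to 107.3 counts in WT replicate 1 and 60.8 to 96.2 in KO replicate 2. The mean was 4.62 ± 1.53 CPM in WT and 2.63 ± 0.265 in KO, a log2 fold change of -0.81 with a 95% interval of -1.45 to -0.17 (SE 0.27, adjusted p = 0.228 in edgeR), so it did not pass. WT replicate 1, the library with the added stomach transcripts named above, was the lowest WT library for Ghrl. Without that library the value was -1.002 (SE 0.24, adjusted p = 0.347). Without WT replicate 2, the highest, it was -0.53 (SE 0.23, adjusted p = 0.442). It was -0.77 (SE 0.32) without KO replicate 1 and -0.90 (SE 0.46) with that library as the only KO library.

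**Figure D4:**
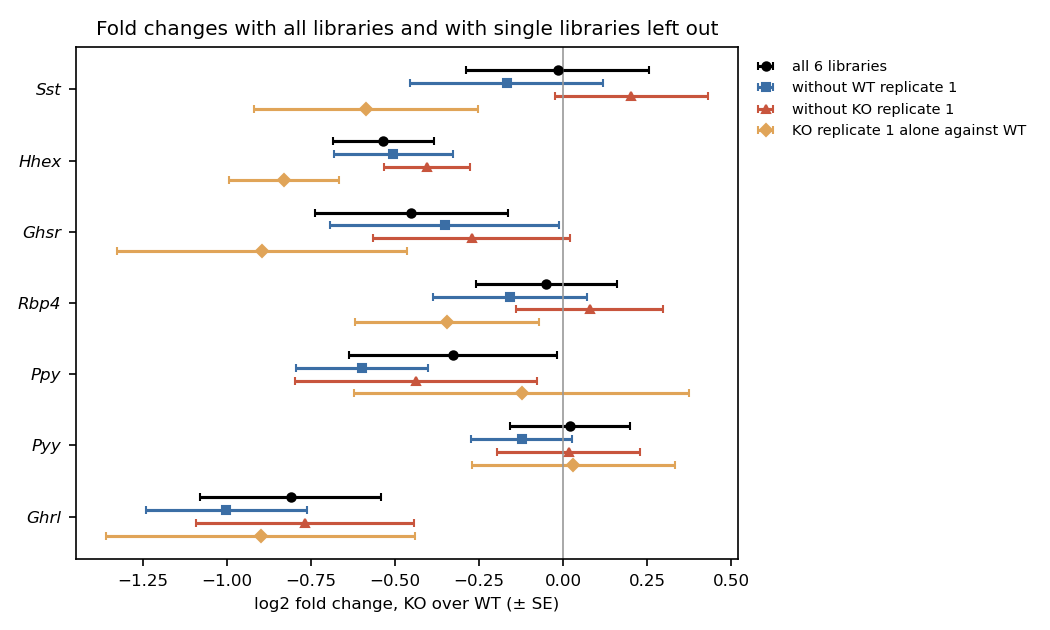
The log2 fold change of KO over WT (points, with bars of ± SE) for each gene, with all 6 libraries, without WT replicate 1, without KO replicate 1, and with KO replicate 1 as the only KO library, whose SE comes from the WT libraries. Hhex and Ghrl were below 0 in each of these overlapping comparisons, Ghrl between -0.77 and -1.002, while Sst was at 0.20 without KO replicate 1 and at -0.59 for that library alone.

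The genes around these hormones were described by lists, each counted in the fit over all genes. In the delta cell list 10 of 12 genes were tested, 0 were called lower and 0 higher, and the median log2 fold change was -0.02. Casr, the calcium-sensing receptor gene, was at -0.03 (SE 0.15), Frzb, which encodes a secreted Wnt antagonist, at 0.19 (SE 0.11), and Spock3, a proteoglycan gene, at -0.43 (SE 0.30). The leptin receptor gene Lepr ranged from 0.972 to 6.94 CPM over the 6 libraries.

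In the PP cell list 7 of 8 genes were tested, 0 were called in either direction and the median was -0.01. Npy, which encodes neuropeptide Y and is the remaining relative of Ppy and Pyy, averaged 5.69 ± 3.03 CPM in WT against 6.68 ± 1.24 in KO (0.23, SE 0.37). The transcription factor gene Etv1 was at -0.18 (SE 0.08, adjusted p = 0.338). In the epsilon cell list 4 of 6 genes were tested, none was called and the median was -0.45. Anxa13, an annexin gene, was at 1.35, 1.82 and 0.926 CPM in WT and 0.646, 0.878 and 0.829 in KO (-0.79, SE 0.33, adjusted p = 0.294). It was lower in every KO library, which 12.1% of tested genes were. The nearest libraries were close, at 0.926 CPM in WT replicate 3 and 0.878 in KO replicate 2. The acyl-CoA ligase gene Acsl1 was at 0.25 (SE 0.20) and Vstm2l at -0.11 (SE 0.22). Mboat4, whose enzyme attaches the fatty acid that ghrelin needs for its receptor, had 1 to 8 counts per library and was not tested.

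Among receptors for these hormones, the somatostatin receptor gene Sstr3 averaged 239.8 ± 88.3 CPM in WT against 283 ± 28.0 in KO (0.24, SE 0.24). Sstr2 was at 8.34, 4.01 and 7.22 CPM in WT and 3.84, 4.58 and 2.41 in KO, with overlap between the groups (-0.85, SE 0.34, adjusted p = 0.284), and Sstr1 at -0.10 (SE 0.26). Sstr4 and Sstr5 had at most 5 counts in any library, where a count of 0 allows up to 3, or 0.110 to 0.117 CPM. In the somatostatin pathway list, 10 of 13 genes were tested, 0 were called and the median was 0.20. It includes Ucn3, a beta cell peptide that drives somatostatin release in mice, at 436, 343 and 412 CPM in WT and 441, 509 and 553 in KO (0.34, SE 0.13, adjusted p = 0.267), and its delta cell receptor gene Crhr2, at 0.24 (SE 0.40). For Ucn3 all KO libraries lay above all WT libraries, which held for 11.3% of tested genes.

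Of the receptors for pancreatic polypeptide and peptide YY, only Npy1r passed the filter on low counts, at 0.768 ± 0.151 CPM in WT and 1.32 ± 0.267 in KO (0.77, SE 0.29, adjusted p = 0.268). Npy4r, which encodes the main receptor for pancreatic polypeptide, had 1 to 4 counts per library, and Npy5r and Npy6r were at 0 in all 6. The family list, with Dpp4, whose protease trims peptide YY, had 5 of 9 genes tested, 0 called and a median of 0.19. The ghrelin pathway list had 6 of 8 tested, 0 called and a median of 0.10. In it Pcsk1, which encodes a convertase that cuts proghrelin among other prohormones, averaged 777.8 ± 58.4 CPM in WT against 1036 ± 188 in KO (0.41, SE 0.15, adjusted p = 0.249). Mrap2, which encodes an accessory protein of the ghrelin receptor, averaged 1.58 ± 1.45 and 3.39 ± 2.41 CPM (1.10, SE 0.81). For Npy1r and Pcsk1 all KO libraries lay above all WT libraries, which held for 11.3% of tested genes.

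In the retinoid list 12 of 17 genes were tested, 0 were called and the median was -0.12. Ttr, the partner of RBP4 in plasma, was at 0.02 (SE 0.15) and the RBP4 receptor gene Stra6 at -0.39 (SE 0.74). The list of endocrine transcription factors, chosen with earlier results of these data known and sharing Hhex and several alpha cell genes with other lists, had 17 of 18 tested, 0 called, 14 negative and a median of -0.34, and 7 of its 17 tested genes were lower in every KO library, which 12.1% of all tested genes were. Pdx1, a factor of beta and delta cells, was at -0.01 (SE 0.08), and Isl1, a LIM homeodomain factor of all endocrine cells, at 0.02 (SE 0.12). Pax4, a factor of beta and delta cell precursors, had 0 to 2 counts per library and was not tested. For comparison, the median was -0.22 in the alpha cell list (12 tested, 9 negative, 0 called), with Gcg, the glucagon gene, at -0.19 (SE 0.21), and 0.29 in the beta cell list (12 tested, 3 negative, 0 called), with Ins1 at 0.36 (SE 0.21) and Ins2 at 0.28 (SE 0.26).

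**Figure D5:**
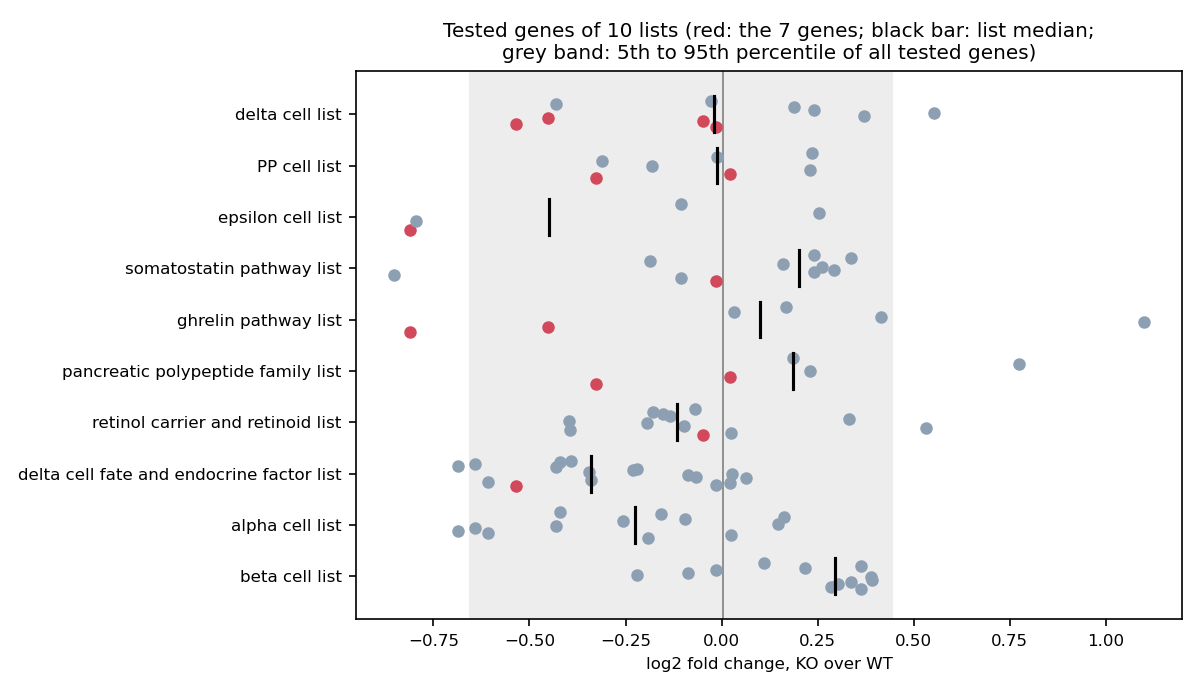
The log2 fold change of KO over WT for each tested gene of 10 lists (dots, with the 7 genes in red), the list median (black bar) and, as a grey band, the range from the 5th to the 95th percentile of all tested genes, -0.65 to 0.44. Ghrl lay below the band and Hhex, Ghsr, Ppy, Sst, Rbp4 and Pyy within it.

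Other cells that hold some of these transcripts were looked at by their own markers. Liver and fat also make Rbp4. Of these tissues' genes the liver list summed to 24.0 to 51.9 CPM in WT and 23.0 to 31.8 in KO. Most of that sum was Tat, at 31.2, 19.9 and 45.4 CPM (TMM-scaled) in WT and 28.7, 19.3 and 19.9 in KO. The sum therefore mainly follows Tat. Adipoq, Cfd, Lep and Retn were at 0 in all libraries. Alb, the albumin gene, had 13 to 32 counts per library. Duct genes, with 11 of 11 tested, summed to 666 to 697 CPM in WT and 614 to 676 in KO, and Schwann cell and neuron genes, with 9 of 10 tested, to 124 to 142 and 109 to 135 CPM. Endothelial genes summed to 453 to 601 CPM in WT and 621 to 639 in KO, stellate and fibroblast genes to 212 to 361 and 269 to 359, and macrophage genes to 106 to 194 and 125 to 233. The adipocyte and mesothelium list summed to 40.6 to 57.5 CPM in WT and 41.0 to 74.5 in KO, and the pan-endocrine list to 3.11 to 3.60% and 3.47 to 3.62% of counts. Median log2 fold changes were -0.35 for the duct list, -0.54 for the Schwann cell list, 0.33 for the endothelial list, 0.42 for the stellate list, 0.33 for the macrophage list and 0.07 for the pan-endocrine list. They were -0.52 over 4 tested stomach and gut genes, -0.40 over 3 liver genes, 0.79 over 2 adipocyte and mesothelium genes and -1.48 over 4 sex-linked genes. None of these lists held a called gene, and their part in the values of the 7 genes was not tested.

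The tested genes whose profile over the 6 libraries was most like that of each of the 7 were found by the root-mean-square difference of centred log2 CPM, among 10406 genes with a mean of at least 5 CPM. For Sst they were Efna5, Rab3gap2 and Cpq, with differences of 0.10, 0.11 and 0.13 beside an SD of Sst itself of 0.37. For Hhex they were Ubn2, Ighmbp2 and Cramp1l (0.074, 0.077 and 0.080, SD 0.35), for Ghsr Scd2, Vwa5b1 and Ptprz1 (0.16, 0.16 and 0.16, SD 0.44) and for Rbp4 Emid1, Phldb2 and Lrp8 (0.077, 0.077 and 0.083, SD 0.29). For Ppy they were Pid1, Unc5a and Ankrd13b (0.19, 0.22 and 0.22, SD 0.46), for Pyy Phactr2, Fam189a2 and H2afx (0.036, 0.038 and 0.068, SD 0.23) and for Ghrl Clmn, Irs1 and Pan2 (0.16, 0.17 and 0.19, SD 0.51). These differences describe the 6 libraries only. Between the 7 genes themselves the smallest difference was that of Sst and Rbp4 (0.22), then Ppy and Pyy (0.29) and Hhex and Ghrl (0.30), and the widest that of Ghsr and Ppy (0.68).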

How the data were processed

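RNA from isolated islets was sequenced in 6 libraries. Raw counts per gene, as deposited by the authors, were used, and 0 columns lacked a sample. Per the submitters' processing notes, the tools were HISAT2 2.1.0, HTSeq, CASAVA 1.8.2 and DESeq2 and the build mm9. Strand setting and annotation: not given in the sources used here. A gene and an antisense partner may therefore share reads. A set of 24 gene names had become dates and is not used here.

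Genes were kept by filterByExpr, scaled by TMM and tested in edgeR 4.0.16 (R 4.3.3) with the quasi-likelihood test over 15915 genes, Benjamini-Hochberg adjusted and called below 0.05. SE is the log2 fold change over the root of F. Levels are CPM after TMM, as mean ± SD over 3 libraries. Ratios add 0.5 to each count before the log2 and use exact permutation tests. Exonic lengths came from GENCODE vM1 on mm9, and promoters from RefSeq on GRCm38.p6, matched by symbol for all 7 genes. Replicates of a genotype differed beyond counting noise (chi-square per degree of freedom 27.1 to 89.4). The alternatives, named in the closing section, used DESeq2 1.42.0 and limma 3.58.1 among others. The test was checked on simulated counts.

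The members and the 21 gene lists were chosen with earlier results of these data known. Named by rule were the 7 genes, called list genes or otherwise the first 4 tested of a list, the 3 genes of most similar profile, and Paupar, Xist and Ddx3y. Some genes of these lists are not reported here. Other list genes were named after their values were seen, and some lists of other cells are given by their sums. Of the acinar list, 2 symbols were not matched. Figures used matplotlib 3.10.9.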

Additional observations from a re-analysis of the deposited data

How the results depend on the processing

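None of the 7 genes was called under any of the 19 alternatives run, and Hhex, Ghsr, Ppy and Ghrl kept a negative fold change in all 18 that give one: Hhex from -0.83 to -0.41, Ghsr from -0.90 to -0.27, Ppy from -0.60 to -0.08 and Ghrl from -1.002 to -0.53. Sst ran from -0.59 to 0.21, Rbp4 from -0.35 to 0.17 and Pyy from -0.12 to 0.23, so these 3 changed sign, and the cause was not tested. Sst ranged over single libraries left out from -0.19 to 0.21 (0.21 without WT replicate 3, 0.20 without KO replicate 1), Rbp4 from -0.24 to 0.17 (0.17 and 0.08 without the same libraries) and Pyy from -0.12 to 0.23 (-0.12 without WT replicate 1 and -0.0017 without WT replicate 3). With a covariate for the sex-linked transcripts, which leaves KO replicate 1 as the KO library comparable with WT, the values were -0.59 for Sst, -0.83 for Hhex, -0.90 for Ghsr, -0.35 for Rbp4, -0.12 for Ppy, 0.03 for Pyy and -0.90 for Ghrl. Pyy was also at -0.10 when libraries were scaled to the pan-endocrine list, which moved the median of all genes to -0.13. The ratio of Rbp4 to Sst ranged from -0.14 to 0.19 (0.19 without KO replicate 2, 0.04 without WT replicate 1).

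The count over all genes, 27 lower and 0 higher, was less stable. It was 2 lower with library sizes without the acinar list, 240 lower with pan-endocrine scaling, 396 lower and 157 higher in DESeq2, 125 lower and 7 higher at an adjusted p below 0.1, and 0 lower in limma-voom and with the sex covariate. KO replicate 1 alone against WT, chosen after seeing the data, gave 0 lower and 1 higher. Without single libraries it ran from 0 to 80 lower and from 0 to 9 higher: 80 and 9 without WT replicate 3, 4 and 1 without KO replicate 1 (the Y-linked Ddx3y, Eif2s3y, Kdm5d and Uty, and Xist), and 0 and 0 without any of the others. The lists held calls in few settings. The endocrine factor list and the alpha cell list each held 4 in DESeq2, 2 with pan-endocrine scaling, 2 at an adjusted p below 0.1, and 1 with at least 1 CPM in 3 libraries or robust empirical Bayes. In DESeq2 the delta cell list held 1, the beta cell list 3, the acinar list 1, the endothelial list 2 and the Schwann cell list 1. Without single libraries the acinar and duct lists held 0 to 1, the sex-linked list held the 5 genes just named without KO replicate 1, and the other lists held 0. The replicate numbers are shared by the genotypes, but deviations of same-numbered libraries correlated at only 0.18, 0.058 and 0.032, so they were not read as pairs. With the replicate block 0 genes were called, and Sst was at -0.03, Hhex at -0.55 and Ghrl at -0.77. The block lowered the SE of Sst (0.27 to 0.14) and Rbp4 (0.21 to 0.064), and also of Hhex, Pyy and Ghrl. It raised that of Ghsr (0.29 to 0.33) and Ppy (0.31 to 0.34). The acinar sum also fell from replicate 1 to replicate 3 in both genotypes. Counts of 65 to 201 for Ghrl and Ghsr limit the precision of both.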
